A study of Mus musculus with 4 samples.

Results

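Imprinted genes, which are transcribed mainly from the allele of 1 parent, were examined in mouse embryonic stem (ES) cells that lack SOCS3 and in wildtype ES cells. The set was a list of 42 mouse imprinted genes, of which 20 are known as paternally expressed, 21 as maternally expressed and 1, Gnas, as a source of transcripts of both alleles. For 40 of them the array annotation gave a probe set that names no other gene, and where a gene had several, the brightest on average over the arrays stood for it. After a filter on dim probe sets, 35 members remained among 12732 genes tested. The probe set that lists H19 also lists a second gene and gave no value here, and Zrsr1 was not analysed here. Kcnq1, a potassium channel gene, Calcr, the calcitonin receptor, Rasgrf1, a Ras activator, Zim1 and Nap1l5 lay below the filter, with intensities of 4.5 to 9.09 on the 4 arrays. The data were 2 arrays of SOCS3-null ES cells and 2 arrays of wildtype ES cells, all from total RNA. SOCS3 inhibits cytokine signalling through JAK kinases and STAT3. The labels do not state a clone, a targeting construct or separate cultures for the arrays. The p-values below therefore reflect the scatter between single arrays, and the labels do not tell how much of it is technical.

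An imprint is a DNA methylation mark that is set in the egg or the sperm and kept on that parental copy after fertilisation. Many imprinted genes lie in clusters, in which 1 marked control region governs coding genes and long noncoding RNAs on both sides. Paternally expressed genes often favour growth of the fetus and placenta and maternally expressed ones often restrain it. Cultured ES cells are known to lose or gain imprints. The arrays measure the sum of both alleles, so an intensity does not tell which allele was transcribed. Several members, among them Cd81, Tssc4, Nap1l4, Dcn and Ppp1r9a, are known to be imprinted mainly in the placenta, and Ube3a in neurons.

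The targeted transcript had intensities of 19.3 and 12.9 on the SOCS3-null arrays and of 3024 and 1884 on the wildtype arrays, on the brightest Socs3 probe set. Which part of the gene was removed is not in the labels, so a probe set outside it would check nothing. All 10 ES cell markers examined passed the filter. Of them 2 were called lower and 0 higher in SOCS3-null cells, against 9.55% and 13.1% of all genes. All 10 changes were negative, with a median of -0.39 on the log2 scale. Those of Dppa5a, Klf4 and Pou5f1 were only -0.03, -0.02 and -0.01. Klf4 had 1178 and 2411 in SOCS3-null cells, on either side of 1802 and 1614 in wildtype cells. The largest decrease was that of Zfp42, not called, with 3502 and 1509 in SOCS3-null cells and 7657 and 7324 in wildtype cells. Pou5f1 changed least, with 11567 and 10524 in SOCS3-null cells and 10524 and 11675 in wildtype cells. All 12 markers of extraembryonic endoderm were called higher in SOCS3-null cells, where their summed intensity was 48430 and 49033, against 2348 and 2862 in wildtype cells. Of 12 fibroblast markers tested 0 were called by limma, and their summed intensity was 13567 and 8598 in SOCS3-null cells and 11136 and 14100 in wildtype cells. Of 6 trophoblast markers tested 1, Tfap2c, was called lower and 0 higher. Changes were positive for 3 and negative for 3, with a median of 0.17. Their sums were 595 and 850 in SOCS3-null cells and 1058 and 1287 in wildtype cells. Tfap2c made up most of each sum, with 468 and 506 in SOCS3-null cells and 955 and 1199 in wildtype cells. Cdx2 and Elf5 lay below the filter, as the fibroblast marker Lum did. In bulk RNA, fewer cells of a type and less RNA per cell cannot be told apart.

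The 2 SOCS3-null arrays stood apart from each other in some transcripts. The correlation of log2 values over all probe sets tested was 0.988 between them and 0.995 between the wildtype arrays. The Y-linked genes Eif2s3y and Uba1y, chosen after their values were seen, had 752 and 146 on SOCS3-null replicate 1 and 19.1 and 11.9 on SOCS3-null replicate 2. On wildtype replicates 1 and 2, Eif2s3y had 249 and 109 and Uba1y 23.8 and 17.3. Results that rest on 1 of the SOCS3-null arrays are given with both values below.

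Promoter windows are shown for 4 members whose levels the results turn on, 1 window a gene, 250 bases before to 50 after the start, from RefSeq on GRCm38.p6. Peg3 and Nnat were called lower, and Meg3 and Mest differed by more than 1 on the log2 scale between the SOCS3-null arrays. Capitals mark TGCCGC, the core bound by the imprint-protecting factor ZFP57 when it is methylated, searched on both strands.
Peg3, chr7:6730370-6730669, minus strand: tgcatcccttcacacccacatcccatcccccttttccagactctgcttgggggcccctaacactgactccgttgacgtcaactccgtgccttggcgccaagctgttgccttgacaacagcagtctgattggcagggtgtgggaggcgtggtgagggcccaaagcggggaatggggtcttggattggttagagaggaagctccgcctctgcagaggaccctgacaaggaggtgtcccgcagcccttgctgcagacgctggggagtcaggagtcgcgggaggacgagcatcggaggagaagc
Meg3, chr12:109540746-109541045, plus strand: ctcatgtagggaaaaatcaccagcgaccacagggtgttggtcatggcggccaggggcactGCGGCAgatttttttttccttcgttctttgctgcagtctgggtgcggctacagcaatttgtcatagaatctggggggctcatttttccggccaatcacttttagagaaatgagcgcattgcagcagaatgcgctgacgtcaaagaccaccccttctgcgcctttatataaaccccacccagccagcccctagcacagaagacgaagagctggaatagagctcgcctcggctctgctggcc
Mest, chr6:30737800-30738099, plus strand: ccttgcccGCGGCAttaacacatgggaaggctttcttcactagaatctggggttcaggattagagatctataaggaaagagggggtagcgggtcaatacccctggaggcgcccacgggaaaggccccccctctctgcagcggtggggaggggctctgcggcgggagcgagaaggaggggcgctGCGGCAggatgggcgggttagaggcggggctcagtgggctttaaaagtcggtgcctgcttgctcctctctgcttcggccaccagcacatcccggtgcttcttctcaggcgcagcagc
Nnat, chr2:157559828-157560127, plus strand: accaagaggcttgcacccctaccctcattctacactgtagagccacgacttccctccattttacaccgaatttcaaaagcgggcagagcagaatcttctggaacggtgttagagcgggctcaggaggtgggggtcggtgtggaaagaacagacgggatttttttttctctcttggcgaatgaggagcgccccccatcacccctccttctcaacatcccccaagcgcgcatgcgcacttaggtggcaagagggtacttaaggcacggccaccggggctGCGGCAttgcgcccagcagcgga
These windows held 13 CpG dinucleotides in Peg3, 13 in Meg3, 17 in Mest and 17 in Nnat, against a median of 7 over all 32851 promoter windows. TGCCGC occurred 2 times in the Mest window shown and 1 time each in those of Meg3 and Nnat, and the letters are not in the Peg3 window. RefSeq gives further starts for Meg3 and Mest. A second Meg3 window, at chr12:109545148-109545447, held 1 CpG and 0 matches to TGCCGC. A second Mest window, at chr6:30733256-30733555, held 8 CpG and 0 matches, and the remaining Mest window overlaps the one shown. The Peg3 window shares 263 bases with that of Usp29, which starts on the opposite strand. Over 53 windows of 34 members, 15 windows held TGCCGC, or 28.3%, against 11.6% of all windows. The members' windows also held more CpG, which the motif contains, with a median of 15. The share was 27.3% of 22 windows of maternally expressed members and 33.3% of 27 windows of paternally expressed ones. The YY1 motif GCCATNTT, on both strands, was in 1 of the 53 windows, that of Ube3a, and in 6.05% of all windows.

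Imprinted genes were compared between SOCS3-null and wildtype cells to ask how far their total transcript levels differ with genotype. Values below are intensities on the linear scale, and changes are SOCS3-null minus wildtype means of log2(intensity + 16), with a standard error (SE), from limma fitted across all genes tested. Calls were made below 0.05 after Benjamini-Hochberg adjustment over the genes tested. Of 35 members 5 fell, Peg3, Phlda2, Nnat, Impact and Ube3a, and 2 rose, Gnas and Cd81, while 28 were not called. That is 14.3% lower against 9.55% of all genes, 5.71% higher against 13.1% of all genes, and 20% called in all against 22.7%. The share called among imprinted genes thus lay near that of all genes. Both SOCS3-null values lay above, or both below, the wildtype pair for 26 members, or 74.3%, against 65.8% of all genes, 17 of the 26 below and 9 above. The median change of the members was -0.31, with quartiles of -0.73 and 0.25, and that of all genes tested was -0.00, with quartiles of -0.24 and 0.30. The members' median was -0.16 without SOCS3-null replicate 1 and -0.12 with no filter on dim probe sets. In fits that dropped 1 array, limma called 0 genes of any kind, while 6 to 13 members and 2928 to 4733 genes had an unadjusted p under 0.05.

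**Figure D1:**
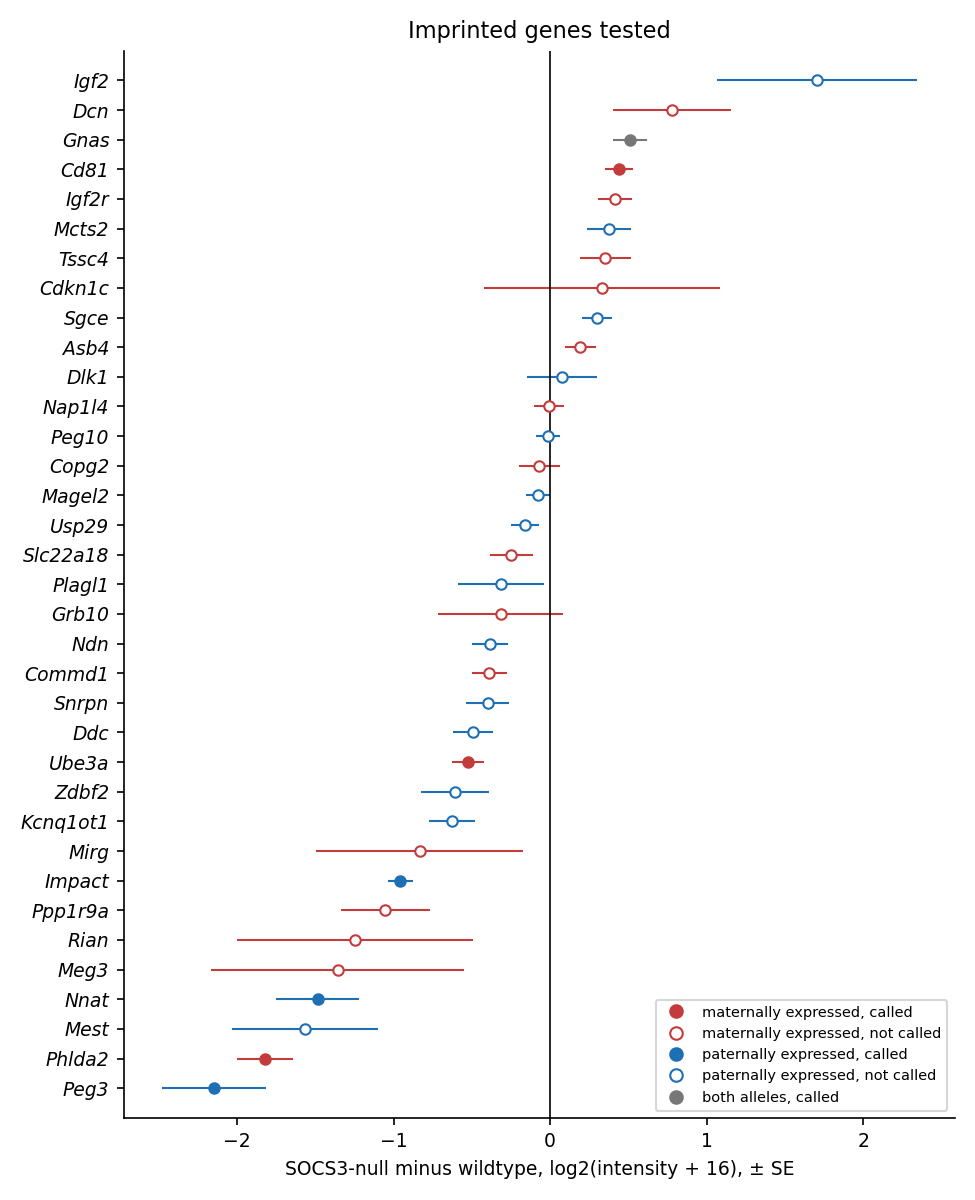
Change of each of the 35 imprinted genes tested (x axis, SOCS3-null minus wildtype mean of log2(intensity + 16), bars ± SE from limma, n = 2 arrays a group), coloured by parental class and filled where called. Peg3 (-2.15) and Phlda2 (-1.82) lie at the low end, and Meg3, Rian, Mirg, Igf2 and Cdkn1c have the widest bars.

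Maternally and paternally expressed members did not part clearly. Of 17 maternally expressed members tested, Phlda2 and Ube3a fell and Cd81 rose, and the median change was -0.25. Of 17 paternally expressed members, Peg3, Nnat and Impact fell and 0 rose, and the median change was -0.38. The maternal median exceeded the paternal one by 0.14. The replicate SDs of the maternal and paternal medians were 0.10 and 0.03. Combined as if independent they gave 0.10, although both medians come from the same arrays. The difference of the medians ran from 0.02 to 0.28 with 1 array left out, and was 0.02 without wildtype replicate 2. No test was made of it. Set against the wildtype mean singly, SOCS3-null replicate 1 had a median difference of -0.23 over the maternally and -0.37 over the paternally expressed members. SOCS3-null replicate 2 had -0.08 and -0.33. Both of these comparisons share the wildtype arrays.

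Among the members that fell, Peg3 is a paternally expressed zinc finger gene with known roles in growth and maternal behaviour. Its intensity was 573 and 297 on the SOCS3-null arrays and 1855 and 1916 on the wildtype arrays. Both SOCS3-null values lay far below both wildtype values, and replicate 2 lay below replicate 1. The change was -2.15 (SE 0.33, limma adjusted p = 0.0252). Its 2 other bright probe sets differed by -2.09 and -2.33, with limma adjusted p of 0.0456 and 0.0578 when all probe sets were fitted, and of 0.0363 for the brightest. Between the SOCS3-null arrays these 2 probe sets differed by -1.02 and -1.31, and the brightest by -0.91. Usp29, a ubiquitin protease gene that starts beside Peg3, was dim, with 13.03 and 11.1 in SOCS3-null cells and 14.3 and 16.5 in wildtype cells (change -0.16, limma adjusted p = 0.283).

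Phlda2, a maternally expressed gene that restrains growth of the placenta, had 575 and 552 in SOCS3-null cells and 2374 and 1739 in wildtype cells. The SOCS3-null arrays differed little from each other and lay below both wildtype arrays. It fell by 1.82 on the log2 scale (SE 0.18, limma adjusted p = 0.0107). Nnat, a membrane proteolipid of the developing brain that is paternally expressed, had 40.2 and 23.2 in SOCS3-null cells and 95.1 and 139 in wildtype cells. The groups did not overlap, and the change was -1.48 (SE 0.27, limma adjusted p = 0.0328). With a pseudocount of 64 it was -0.91. Impact, a paternally expressed regulator of translation, had 285 and 269.6 in SOCS3-null cells and 553 and 553 in wildtype cells. It fell by 0.96 (SE 0.08, limma adjusted p = 0.00886). The wildtype values of Impact were identical, as those of 401 of all 12732 genes were, so its spread between wildtype arrays is not measured.

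Ube3a, a ubiquitin ligase that is maternally expressed in neurons, had 1680.0 and 1860.35 in SOCS3-null cells and 2672 and 2437 in wildtype cells. The change was -0.53 (SE 0.10, limma adjusted p = 0.0392). Of its 6 probe sets tested, 3 were called lower over all probe sets and the 3 others were not called. The members that rose did so by less. Gnas, which encodes the stimulatory G protein subunit and further transcripts of either allele, had 3594 and 3787 in SOCS3-null cells and 2406 and 2778 in wildtype cells. Its change was 0.51 (SE 0.11, limma adjusted p = 0.0465) on a probe set that does not separate the transcripts by allele. When all probe sets were fitted, Gnas was not called (limma adjusted p = 0.0564), and 1 of its 5 probe sets passed the filter. Cd81, a tetraspanin, had 2199 and 2367 in SOCS3-null cells and 1634 and 1724 in wildtype cells, with a change of 0.44 (SE 0.09, limma adjusted p = 0.0414). Gnas, Cd81 and Ube3a were not called with a pseudocount of 1, nor was Ube3a with its probe sets averaged (change -0.33, limma adjusted p = 0.0527). With no filter on dim probe sets, Phlda2 and Impact alone of the 7 were called.

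**Figure D2:**
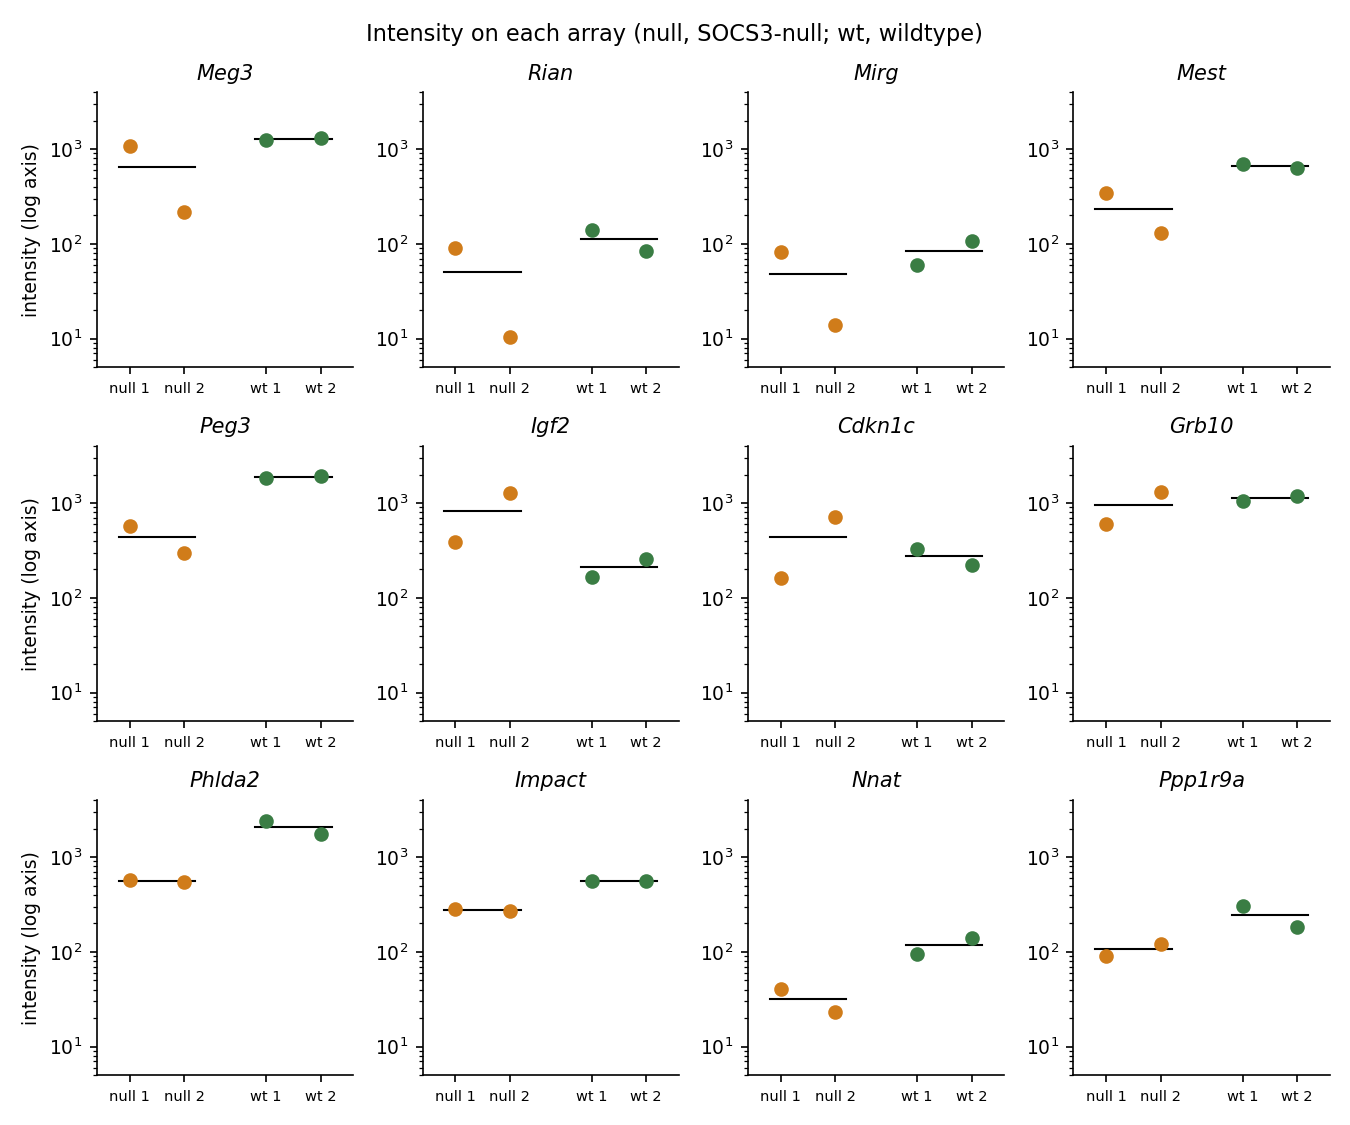
Intensity (log axis) of 12 imprinted genes on SOCS3-null replicates 1 and 2 and wildtype replicates 1 and 2, with each group's mean as a line. Meg3, Rian and Mirg stand at wildtype level on SOCS3-null replicate 1 and low on replicate 2, while Phlda2 and Impact are alike on both.

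Among the imprinted genes tested, 3 of the 7 that differed by at least 1 on the log2 scale between the SOCS3-null arrays lie in the Dlk1-Meg3 cluster on chromosome 12, whose maternal copy makes the long noncoding RNAs Meg3, Rian and Mirg and whose paternal copy makes Dlk1. Rian carries small nucleolar RNAs and Mirg carries microRNAs. Meg3 had 1081 and 216 on SOCS3-null replicates 1 and 2, and 1253 and 1297 on the wildtype arrays. Replicate 1 lay close to wildtype and replicate 2 far below every other array, with a ratio of replicate 1 over replicate 2 of 5.01. The group change of Meg3 was -1.36 (SE 0.81, 95% interval -3.62 to 0.91, limma adjusted p = 0.307), so the fit across groups made no call.

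Rian had 89.6 and 10.5 on SOCS3-null replicates 1 and 2, and 142 and 83.7 on the wildtype arrays. Mirg had 81.8 and 14.0 on SOCS3-null replicates 1 and 2, and 60.3 and 106 on the wildtype arrays. For both, replicate 1 lay within the wildtype range and replicate 2 lay outside it, under that array's median of 15.7. Values that low are not clearly above background, so no ratio between the replicates is given for this pair of genes. Dlk1, a membrane ligand of the Notch type, was dim on all arrays, with 26.3 and 14.3 in SOCS3-null cells and 14.3 and 22.1 in wildtype cells.

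The pattern held over the brighter probe sets. Of the 14 probe sets of Meg3, Rian and Mirg with a wildtype mean over 30, all 14 were lowest on SOCS3-null replicate 2. Over the 8 of Meg3, SOCS3-null replicate 1 was 0.71 to 1.17 times the wildtype mean and replicate 2 was 0.14 to 0.45 times. Over the 4 of Rian these ratios were 0.78 to 1.57 on replicate 1 and 0.09 to 0.28 on replicate 2. Over the 2 of Mirg they were 0.74 to 0.98 on replicate 1 and 0.17 to 0.33 on replicate 2. The limit of 30 was set on the wildtype arrays, which favours probe sets that are high there. Meg3 probe sets under it were at 0.90, 0.54 and 0.99 times the wildtype mean on replicate 2, the last not lowest there. The replicate 2 values of Rian and Mirg were near or under the array median, so their low ratios are imprecise. Probe sets of 1 gene share their RNA and are not replicates. The median difference between replicate 2 and replicate 1 over 445 genes of chromosome 12 was 0.00. Such a median cannot show a change in a part of the chromosome, which was not tested. All 12 fibroblast markers were lower on SOCS3-null replicate 2 than on replicate 1, with a median of -0.56 on the log2 scale, beside -2.24 for Meg3; their part in the result was not tested. On the wildtype arrays all 12 were higher on replicate 2 than on replicate 1, with a median of 0.45 on the log2 scale. Their sums there were 11136 and 14100, of which Vim had 4982 and 5702 and Fn1 3836 and 4388. Vim and Fn1 differed least, by 0.19 each, and S100a4 most, by 0.89. There Meg3 was 1253 and 1297 on its brightest probe set. Its other bright probe sets had 875 and 1079, 578 and 746, 554 and 757, and 512 and 579. Mirg was higher on wildtype replicate 2 than on wildtype replicate 1, and Rian was lower.

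**Figure D3:**
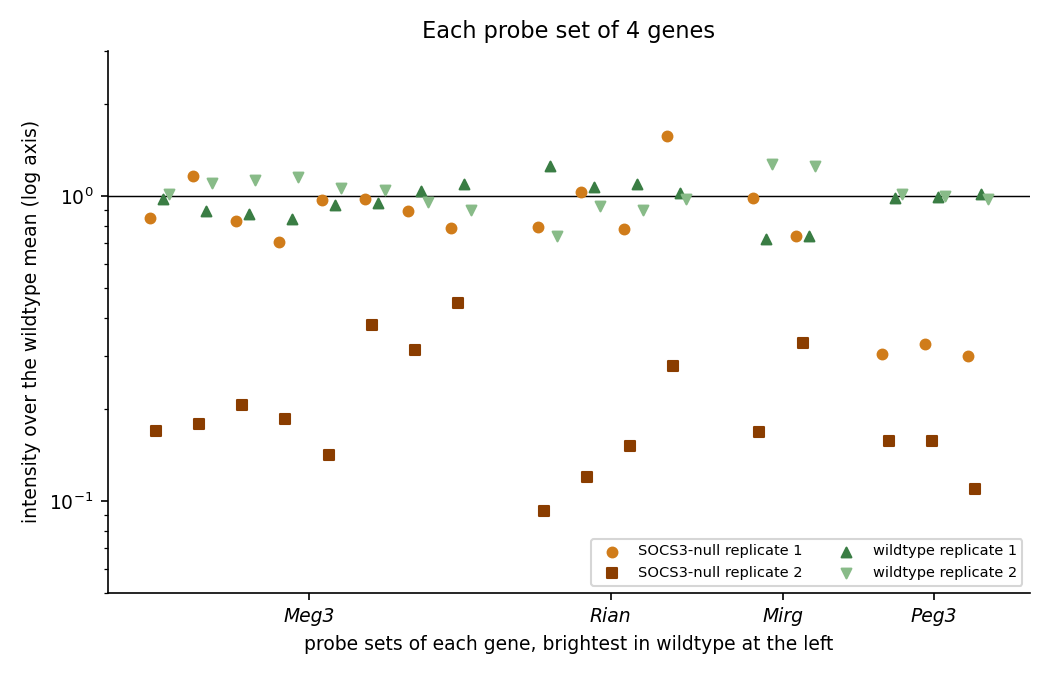
Intensity of each probe set of Meg3, Rian, Mirg and Peg3 over its wildtype mean (log axis), for probe sets with a wildtype mean over 30, on each array. SOCS3-null replicate 2 is at 0.14 to 0.45 over the Meg3 probe sets and replicate 1 at 0.71 to 1.17, while both are at 0.33 or below over the Peg3 probe sets.

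Across all members the SOCS3-null arrays differed by at least 1 on the log2 scale for 7 of 35, or 20%, against 1.58% of all genes tested. The wildtype arrays differed by that much for 0 of 35 members, against 0.055% of all genes. These are differences between single arrays, with no test, and the members were chosen with earlier results of these data known. Of 25 imprinted genes tested outside the set, 0 differed by that much between the SOCS3-null arrays. The 7 were Meg3, Rian, Mirg and Mest, lower on replicate 2, and Cdkn1c, Igf2 and Grb10, higher on replicate 2. The median size of the difference was 0.24 over the members and 0.16 over all genes in SOCS3-null cells, and 0.19 over the members and 0.11 over all genes in wildtype cells. Of the 7 genes 3 belong to the Dlk1-Meg3 cluster, 5 are maternally and 2 paternally expressed.

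**Figure D4:**
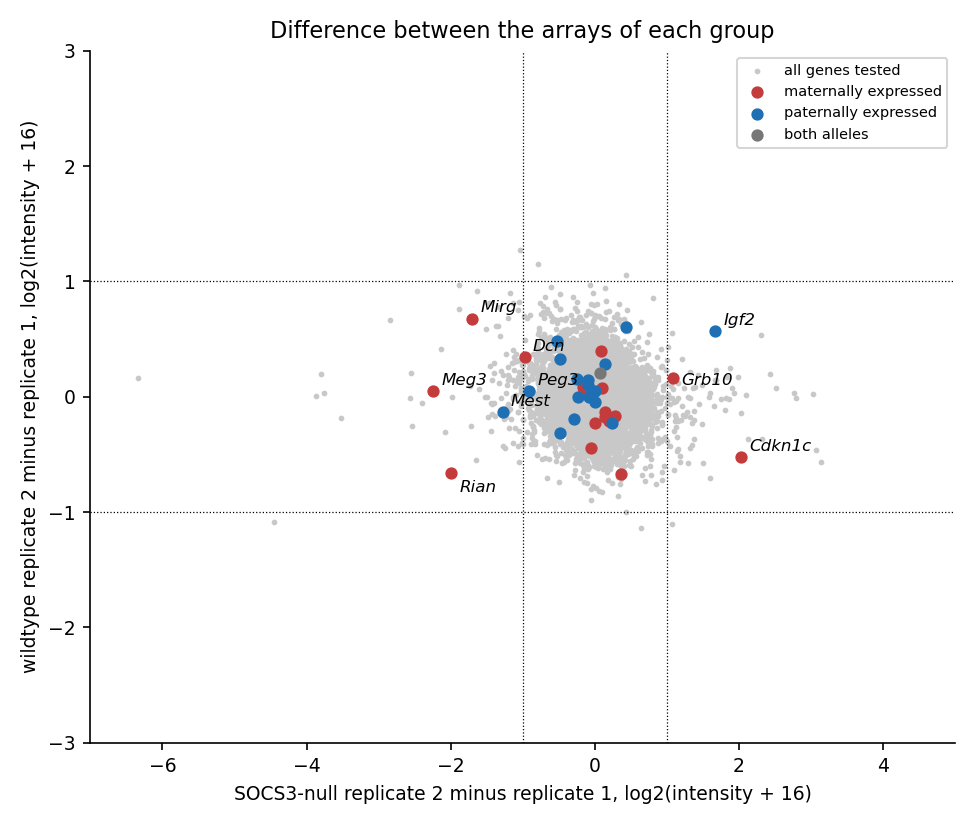
Difference between the 2 arrays of a group, SOCS3-null on the x axis and wildtype on the y axis, in log2(intensity + 16), for all 12732 genes (grey) and the 35 imprinted genes (coloured by parental class). Meg3, Rian, Mirg, Mest, Igf2, Cdkn1c and Grb10 lie beyond 1 along the SOCS3-null axis, and 0 imprinted genes do along the wildtype axis.

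Igf2, the paternally expressed fetal growth factor, had 388 and 1276 on SOCS3-null replicates 1 and 2 and 166 and 254 on the wildtype arrays. Both SOCS3-null values lay above both wildtype values, and replicate 2 was 3.29 times replicate 1. The change was 1.70 (SE 0.64, limma adjusted p = 0.143), and was 0.87 without SOCS3-null replicate 2 and 2.54 without SOCS3-null replicate 1. A second Igf2 probe set was dim on all arrays. Igf2r, the maternally expressed receptor that clears IGF2, had 528 and 583 in SOCS3-null cells and 438 and 387 in wildtype cells (change 0.42, SE 0.11, limma adjusted p = 0.0713). A dimmer probe set of Igf2r was called higher, with 0.65 (SE 0.09, limma adjusted p = 0.029 over all probe sets).

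Cdkn1c, a maternally expressed inhibitor of cyclin-dependent kinases, had 161 and 706 on SOCS3-null replicates 1 and 2 and 325 and 222 on the wildtype arrays. Replicate 1 lay below both wildtype arrays and replicate 2 above both, so the group change of 0.33 (SE 0.75, limma adjusted p = 0.797) has no single direction. It was -0.68 without SOCS3-null replicate 2 and 1.34 without SOCS3-null replicate 1. Grb10, a maternally expressed adaptor that restrains insulin and IGF signalling, had 608 and 1309 on SOCS3-null replicates 1 and 2 and 1055 and 1181 on the wildtype arrays. Here too replicate 1 lay below and replicate 2 above the wildtype range (change -0.32, SE 0.40, limma adjusted p = 0.622). Both dimmer Grb10 probe sets disagreed, being lower on both SOCS3-null arrays than on both wildtype arrays. One had 76.3 and 117 in SOCS3-null cells and 179.9 and 215 in wildtype cells, and the other had 40.4 and 55.8 in SOCS3-null cells and 61.6 and 74.8 in wildtype cells.

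Mest, a paternally expressed gene of the hydrolase family, had 340.5 and 131 on SOCS3-null replicates 1 and 2 and 695 and 632 on the wildtype arrays. Both SOCS3-null arrays lay below wildtype, replicate 2 furthest. The change was -1.57 (SE 0.47, limma adjusted p = 0.092). Its neighbour Copg2, a coat protein gene, had 285 and 331 in SOCS3-null cells and 348 and 299 in wildtype cells. Dcn, a matrix proteoglycan of fibroblasts, had 75.03 and 30.4 in SOCS3-null cells and 17.6 and 26.6 in wildtype cells, and the difference between its SOCS3-null arrays was -0.97, just under 1. Over 623 genes of chromosome 6, which holds Mest, the median difference of replicate 2 from replicate 1 was 0.09, and over 1013 genes of chromosome 7, which holds Igf2, Cdkn1c and Peg3, it was -0.01. The range of such medians over the chromosomes other than Y was -0.08 to 0.09, its ends being chromosomes 8 and 6. These stood apart, as the next furthest were chromosome 16 at -0.018 and X at 0.012. Between the wildtype arrays the medians of chromosomes 6 and 8 were -0.002 and -0.004. What set these chromosomes apart was not tested.

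In the Kcnq1ot1 cluster, which also holds Cdkn1c, Phlda2 and Cd81, the paternally expressed noncoding RNA Kcnq1ot1 silences neighbouring genes on the paternal copy. Kcnq1ot1 had 111 and 88.2 in SOCS3-null cells and 174 and 150.3 in wildtype cells, with a change of -0.63 (SE 0.15, limma adjusted p = 0.0547), just above the threshold. Its 3 other probe sets tested differed by only -0.12, -0.13 and -0.14, and the brightest of these had 78.5 and 79.5 in SOCS3-null cells and 89.9 and 87.7 in wildtype cells. Phlda2 fell and Cd81 rose in the same cluster, so its members did not move one way. Nap1l4, a histone chaperone, differed by -0.01, Slc22a18, a transporter, by -0.25 and Tssc4, a splicing factor gene, by 0.35, with limma adjusted p of 0.959, 0.279 and 0.209.

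In the Snrpn-Ube3a cluster all 4 members tested lay lower on both SOCS3-null arrays than on both wildtype arrays, of which Ube3a alone was called. Groups did not overlap for 65.8% of all genes, and Magel2 and Snrpn were near or under the array medians, so the order of their values is that of dim signal. Ndn, a paternally expressed growth suppressor of neurons, had 288 and 242 in SOCS3-null cells and 349 and 349 in wildtype cells (change -0.38, limma adjusted p = 0.0893). On a dimmer Ndn probe set the groups overlapped, with 271 and 160 in SOCS3-null cells and 228 and 313 in wildtype cells. On its other probe sets tested they did not overlap. Snrpn, a splicing protein gene, was dim on the probe set that names it alone, with 13.8 and 16.9 in SOCS3-null cells and 21.4 and 29.6 in wildtype cells, and 6 further probe sets that name it with another gene were not used. Magel2, a regulator of ubiquitin ligases, was dim, between 10.1 and 12.2 on all arrays.

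In the Peg10-Sgce cluster the members differed in direction. Ppp1r9a, a neuronal actin-binding protein, had 90.7 and 122 in SOCS3-null cells and 301 and 183 in wildtype cells. Its groups did not overlap, and the change of -1.05 (SE 0.28) had a limma adjusted p of 0.0745. Its dimmer probe sets were called lower over all probe sets, with -0.91 and -1.25 (limma adjusted p = 0.0329 and 0.01). Sgce, a sarcoglycan and paternally expressed, had 135 and 125 in SOCS3-null cells and 96.8 and 109 in wildtype cells (change 0.30, limma adjusted p = 0.11). Peg10, a gene derived from a retrotransposon, was at 16.6 and 16.6 in SOCS3-null cells and 17.4 and 16.5 in wildtype cells on its only probe set, near the array medians. Asb4, a ubiquitin ligase adaptor, was dim too, at 9.59 to 15.9.

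Members outside these clusters were not called, apart from Nnat, Impact and Gnas. Zdbf2, a paternally expressed zinc finger gene, had 293 and 206 in SOCS3-null cells and 427 and 341 in wildtype cells (change -0.60, limma adjusted p = 0.132). Ddc, an amine-synthesis enzyme beside Grb10, had 350 and 291 in SOCS3-null cells and 431 and 483 in wildtype cells (change -0.49, limma adjusted p = 0.0715). Commd1, a gene of copper and NF-kB regulation, had 849 and 849.8 in SOCS3-null cells and 1211 and 1029 in wildtype cells (change -0.39, limma adjusted p = 0.0862). Plagl1, a zinc finger regulator of other imprinted genes, had 65.0 and 93.1 in SOCS3-null cells and 78.7 and 128 in wildtype cells, and the groups overlapped. Mcts2, a retrocopy of Mcts1 whose transcripts the probes may not separate, had 962 and 1139 in SOCS3-null cells and 868 and 740 in wildtype cells (change 0.38, limma adjusted p = 0.139).

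Regulators of imprints were taken from a list of 28, of which 25 were tested. Of these 7 fell and 1 rose, against 9.55% of all genes lower and 13.1% higher, and the median change was -0.22. The largest decrease was that of Dppa3, which shields imprints in the early embryo, with 73.2 and 167 in SOCS3-null cells and 1076 and 1075 in wildtype cells (change -3.10, limma adjusted p = 0.0157). Dnmt3a, a de novo DNA methyltransferase, had 148 and 206 in SOCS3-null cells and 709 and 688 in wildtype cells (change -1.91, limma adjusted p = 0.00985). Tet1, Mbd3, Hells, Zfp445 and Ehmt1 fell by 0.72, 0.80, 0.61, 0.59 and 0.38 on the log2 scale. Dnmt3l, a cofactor of the de novo enzymes, rose, with a change of 0.48 (limma adjusted p = 0.031).

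Dnmt1, Uhrf1, Trim28 and Zfp57 were not called. Dnmt1, the maintenance methyltransferase, had 1087 and 1054 in SOCS3-null cells and 1017 and 1087 in wildtype cells (change 0.03, limma adjusted p = 0.867). Uhrf1, which brings DNMT1 to newly copied DNA, differed by -0.22 and Trim28, the corepressor that ZFP57 recruits, by -0.24 (limma adjusted p = 0.195 and 0.257). Zfp57 had 297 and 273 in SOCS3-null cells and 154 and 261 in wildtype cells (change 0.47, limma adjusted p = 0.286). Of the 25 genes, Dppa3 alone differed by at least 1 between the SOCS3-null arrays.

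A further list of 39 imprinted genes outside the set had 25 tested, of which 4 rose and 2 fell, with a median of -0.01. The share called was near the 22.7% of all genes, so the genes named next are a description of the list. Pon2, Sfmbt2, Airn and Osbpl5 rose by 1.13, 0.99, 0.80 and 0.80 on the log2 scale. Airn, the paternal noncoding RNA that runs antisense to Igf2r, had 30.2 and 41.2 in SOCS3-null cells and 12.1 and 14.9 in wildtype cells (limma adjusted p = 0.0323). Atp10a, a neighbour of Ube3a, had 8.45 and 8.87 in SOCS3-null cells and 65.1 and 48.0 in wildtype cells (change -1.55, limma adjusted p = 0.0101). Mkrn3 fell by 0.66 to dim values of 15.4 and 13.9 in SOCS3-null cells, against 37.1 and 28.2 in wildtype cells. The SOCS3-null arrays differed by at least 1 for 0 of these 25 genes.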

How the data were processed

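Total RNA of mouse ES cells was measured on 4 arrays, 2 SOCS3-null and 2 wildtype, grouped by the submitters' labels. Each deposited value is a linear intensity; how these were summarised and normalized is not given in the sources used here. Array medians were 15.7 to 16.0, so the values were not normalized again. The number of arrays limits the precision. Without the 64 controls there were 45037 probe sets, and the 27022 at or above the 40th percentile of mean log2(intensity + 16) were kept. Symbols are those of the platform annotation, chromosomes and promoters from RefSeq tables (GRCm38.p6). Genes were fitted with limma 3.58.1 in R 4.3.3 (lmFit, eBayes, genotype as the only term), which was tested on simulated data. The rule for named genes was any member, with all 4 values where a member was called, changed by at least 1 or differed by at least 1 between SOCS3-null arrays, and, of the lists of imprint regulators and further imprinted genes, each called gene, Zfp57, Trim28, Dnmt1 and Uhrf1. Members and lists were chosen with earlier results of these data known. Alternatives were other pseudocounts, normalizations, filters and variance models, averaging of probe sets within a gene, a replicate block, and leaving out each array. Figures were drawn with matplotlib 3.10.9.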

Additional observations from a re-analysis of the deposited data

How the results depend on the processing

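Peg3, Phlda2, Nnat, Impact and Ube3a stayed lower and Cd81 and Gnas higher in SOCS3-null cells under all 15 alternatives. Filters, variance models and replicate blocks left these estimates unchanged, and groups without overlap keep their order when 1 array is dropped. Most alternatives could therefore not change the direction, so its constancy adds no support. Calls were made for Phlda2 and Impact under 11 of the 15 alternatives, Peg3 under 10, Nnat under 9, and Ube3a, Cd81 and Gnas under 7. Quantile normalization, median centring and both trended variance models changed none of these calls. Members called higher numbered 2, and 0 with a pseudocount of 1, with no filter, with the replicate block and with the crossed replicate block. Members called lower numbered 5, and 2 with no filter and 8 with a filter at the 60th percentile, where fewer genes were tested. The count over all genes of 2888 was 1631 with no filter.

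The median change of the members, -0.31, was -0.17 with a pseudocount of 64, -0.12 with no filter, -0.38 with the 60th percentile and -0.26 with averaged probe sets. The maternal median, -0.25, was -0.13 with a pseudocount of 64 and -0.053 with no filter. The paternal median, -0.38, was -0.22, -0.31, -0.55 and -0.31 under a pseudocount of 64, no filter, the 60th percentile and averaged probe sets. The maternal minus paternal median, 0.14, was 0.26 with no filter and 0.27 with the 60th percentile. The median size of the difference between SOCS3-null arrays, 0.24, was 0.27 with a pseudocount of 1 and 0.20 with one of 64. The causes were not tested.

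With each array left out in turn, 0 genes were called by limma, members included, in fits with 1 array in a group, which is assumed to vary like the other group. The members' median was between -0.27 and -0.16, the maternal one between -0.24 and -0.085, the paternal one between -0.45 and -0.25, and their difference between 0.017 and 0.28. Cdkn1c was at -0.68 without SOCS3-null replicate 2 and at 1.34 without SOCS3-null replicate 1. Mirg was at 0.020 without SOCS3-null replicate 2 and at -1.68 without SOCS3-null replicate 1. Grb10 was at -0.86 without SOCS3-null replicate 2 and at 0.23 without SOCS3-null replicate 1.

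Across the genes tested, the difference between replicates in wildtype cells and that in SOCS3-null cells had a correlation of -0.12. This single value gave no sign of pairing by replicate number but cannot show that the arrays were unpaired. With the replicate block limma called 1914 genes, with 3 members lower and 0 higher. The crossed pairing, chosen after seeing the data, gave 2817 genes, with 6 members lower and 0 higher. Array number and dim signal limit the precision, most of all near the array medians.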
